A study of Danio rerio with 8 samples.

Results

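The slow myosin heavy chain genes of zebrafish were described in tail muscle of wild type and runx2b-/- fish. The set was named as 7 genes, smyhc1, smyhc2, smyhc3, myh7, myh7ba, myh7bb and myh7l, and a member was taken where the count table held a row of exactly that symbol. Of the 7 names, 4 had such a row (smyhc1, smyhc2, myh7ba and myh7bb), out of 25279 rows in all. The same 4 passed the filter on low counts, among 14107 tested genes. The other 3 names, smyhc3, myh7 and myh7l, had no row of their own.

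The study set runx2b-/- fish beside wild type fish to look at the intermuscular bones (IB), thin bones that lie in the connective tissue between muscle segments. Bulk RNA came from tail muscle with these bones at 60 days post fertilization (dpf), from 3 wild type and 3 runx2b-/- libraries. Fish of both genotypes belonged to the Tg (sp7/eGFP) line, in which the sp7 transgene reports bone-forming cells, so the wild type libraries carry that transgene too. The labels do not give the mutant allele, the sex or the number of fish behind a library. A p-value therefore sets the genotype difference only against how far the samples of a group differ, and that spread may be technical. A further 2 single-cell samples were not analysed here.

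Myosin heavy chain is the motor protein of the thick filament, and the type made by a muscle fibre sets much of how fast it contracts. In teleost fish, slow fibres form a thin superficial layer next to the skin, and fast fibres fill most of the myotome, so slow isoforms are a small part of the myosin in whole tail muscle. In zebrafish, smyhc1 is the main slow myosin of the embryonic slow fibres, and smyhc2 and smyhc3 are its close neighbours on the same chromosome, used by slow fibres at later stages and in the head. myh7ba and myh7bb are the zebrafish counterparts of mammalian MYH7B, a slow and cardiac type myosin gene whose introns carry a microRNA in mammals. The gene once called vmhc encodes the ventricular myosin of the zebrafish heart.

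Total counts ran from 17280098 to 20482003 per library. The 10 most abundant genes held 47.4% to 54.8% of counts. Markers of both muscle types were present in every library, the fast ones at a summed level of 104302 to 155924 CPM (counts per 1e6, with TMM-scaled library sizes) and the slow ones at 2290 to 3335 CPM. The slow markers include smyhc1, itself a member. Of 14107 tested genes, 476 were called (3.37%) at an adjusted p under 0.05 by edgeR's quasi-likelihood test with Benjamini-Hochberg adjustment, and 248 of them (1.76%) were higher in the mutant. All adjusted p-values below come from that fit unless another tool is named. In such bulk RNA, fewer cells of a type and less RNA per cell cannot be told apart.

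What each row covers bears on every value below. Positions are those in the count table, whose build it does not name; the submitters' processing notes name GRCz11. smyhc1 (chromosome 24, 40956288 to 40968424, minus strand) had 35 exon blocks and 6869 exon bases. smyhc2 (chromosome 24, 40956716 to 41025918, minus strand) had 70 exon blocks and 11567 exon bases, in 3 parts. Its first part was a single block of 102 bases that lay wholly in an exon of smyhc1. Its second part held 38 blocks over 6506 bases, and its last, 14371 bases further on, held 31 blocks over 4959 bases. In the RefSeq gene table, which is of the assembly GRCz12tu, smyhc3 is the next protein-coding neighbour of smyhc2 on the side away from smyhc1. The smyhc2 row therefore spans more than 1 myosin-sized cluster of exons. Whether its last part is smyhc3 could not be read from the table, so it is not known whether that row mixes reads of smyhc2 and smyhc3. Nor could it be read whether smyhc3 lies in the row MYH7 (1 of many), described below.

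**Figure D1:**
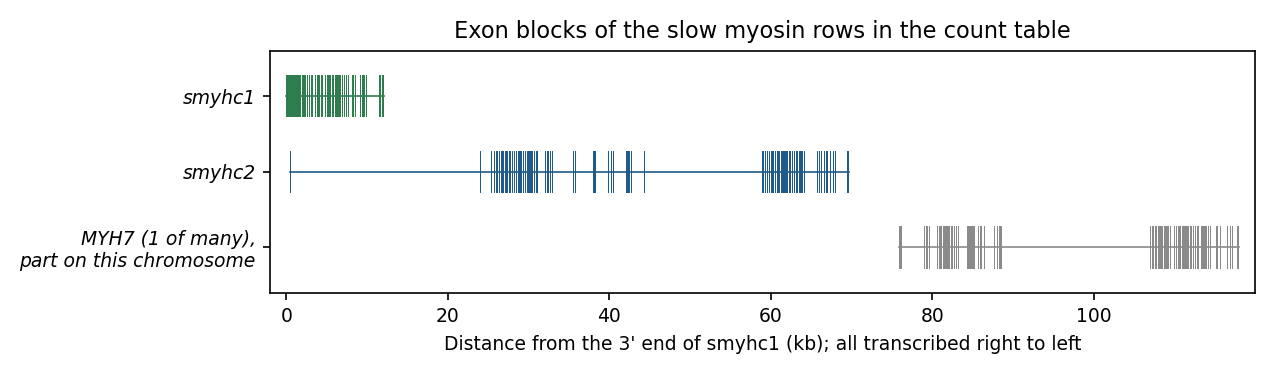
Exon blocks (bars) of 3 rows of the count table on chromosome 24, by distance in kb from the 3′ end of smyhc1. smyhc1 is 1 cluster of blocks, whereas smyhc2 holds a lone block inside smyhc1 and further clusters of 38 and 31 blocks, and MYH7 (1 of many) continues beyond it.

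A further row beside them, named MYH7 (1 of many), had 66 exon blocks on chromosome 24 (41032106 to 41074234, minus strand) and 39 on chromosome 19 (890369 to 910641, plus strand). Its symbol is no member and joins separate places, so it was kept out of the family sum. RefSeq lists MYH7 among the synonyms of smyhc2. Whether part of the row MYH7 (1 of many) belongs to smyhc2 could not be read from the table. myh7ba (chromosome 11, 24945111 to 24976035, minus strand) had 41 exon blocks. myh7bb (chromosome 23, 18796372 to 18830994, plus strand) had 43, and neither shared an exon base with another row. smyhc1 and smyhc2 shared 102 exon bases, and smyhc2 shared 141 with a clone-named row on the opposite strand that stood at a mean of 72.5 CPM. These myosins are close in sequence, and how the count treated reads that fit several genes was not given in the sources used here, so the split of reads among smyhc1, smyhc2 and MYH7 (1 of many) is uncertain.

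None of the 4 slow myosin genes was called different between the genotypes, beside 3.37% of all tested genes. The point estimates of all 4 were higher in the mutant, from 1.1-fold for smyhc1 to 1.48-fold for myh7bb. By unadjusted p, 2 of the 4 lay under 0.05, beside 19.4% of all tested genes, and DESeq2 and limma voom called 0 of 4. The pair of MYH7B genes stood further from wild type than the smyhc pair, a difference between pairs that was not tested.

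smyhc1, the slow myosin of the first slow fibres, stood at 1233, 952 and 840.6 CPM in wild type libraries 1 to 3. It stood at 1094, 1106 and 1142 CPM in mutant libraries 1 to 3. The mutant libraries lay close together and inside the wild type range, between wild type library 1, the highest of all, and the other wild type libraries. The means were 1008 ± 202 CPM in wild type and 1114 ± 24.9 CPM in mutant (SD, n = 3 each). The log2 fold change, mutant minus wild type, was 0.14 (SE 0.17, edgeR adjusted p = 0.701), with a 95% interval from -0.23 to 0.51. A rise above 1.43-fold or a fall to below 0.854 of wild type thus lay outside that interval. It was 0.31 without wild type library 1 (adjusted p = 0.3), 0.09 without library 2 (0.89) and 0.03 without library 3 (0.939).

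smyhc2, the most abundant member, stood at 4645, 3211 and 3663 CPM in wild type libraries 1 to 3. In mutant libraries 1 to 3 it stood at 4302, 4352 and 4689 CPM. The groups overlapped, because wild type library 1 lay above both mutant library 1 and mutant library 2. The log2 fold change was 0.21 (SE 0.17, edgeR adjusted p = 0.549), with a 95% interval from -0.16 to 0.59. Without wild type library 1 it was 0.36, with an interval from 0.01 to 0.72 (unadjusted p = 0.0442, adjusted p = 0.243), and without wild type library 2 it was 0.08 (adjusted p = 0.895). With smyhc1 and smyhc2 summed into 1 row before the fit, so that their split no longer mattered, the log2 fold change was 0.198 (adjusted p = 0.578).

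myh7ba, a MYH7B gene, stood at 233.7, 301.7 and 217.6 CPM in wild type libraries 1 to 3. In mutant libraries 1 to 3 it stood at 399.1, 340.4 and 305.4 CPM. It was the only member whose groups did not overlap, with mutant library 3 just above wild type library 2, and 12.8% of tested genes had mutant libraries that all lay above wild type. The means were 251 ± 44.7 CPM in wild type and 348 ± 47.4 CPM in mutant (SD, n = 3 each). The log2 fold change was 0.47 (SE 0.18, unadjusted p = 0.019, edgeR adjusted p = 0.161), with a 95% interval from 0.09 to 0.85. The gene ranked 1662 by p among the 14107 tested. With single libraries left out the log2 fold change ran from 0.364 (without mutant library 1) to 0.612 (without wild type library 2). The 95% interval held 0 without wild type library 3 (-0.04 to 0.81) and without mutant library 1 (-0.06 to 0.79). With library size only it ran from -0.02 to 0.91.

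myh7bb, the second MYH7B gene, stood at 169, 138.7 and 84.64 CPM in wild type libraries 1 to 3. In mutant libraries 1 to 3 it stood at 203.2, 215.9 and 160.4 CPM. Mutant library 3 lay below wild type library 1, so the groups overlapped, and wild type library 3 was the lowest by far. The means were 131 ± 42.8 CPM in wild type and 193 ± 29.1 CPM in mutant (SD, n = 3 each). The log2 fold change was 0.56 (SE 0.23, unadjusted p = 0.0349, edgeR adjusted p = 0.219), with a 95% interval from 0.05 to 1.08. Without wild type library 3 it was 0.33 (adjusted p = 0.316), and without wild type library 1 it was 0.78 (adjusted p = 0.0654).

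**Figure D2:**
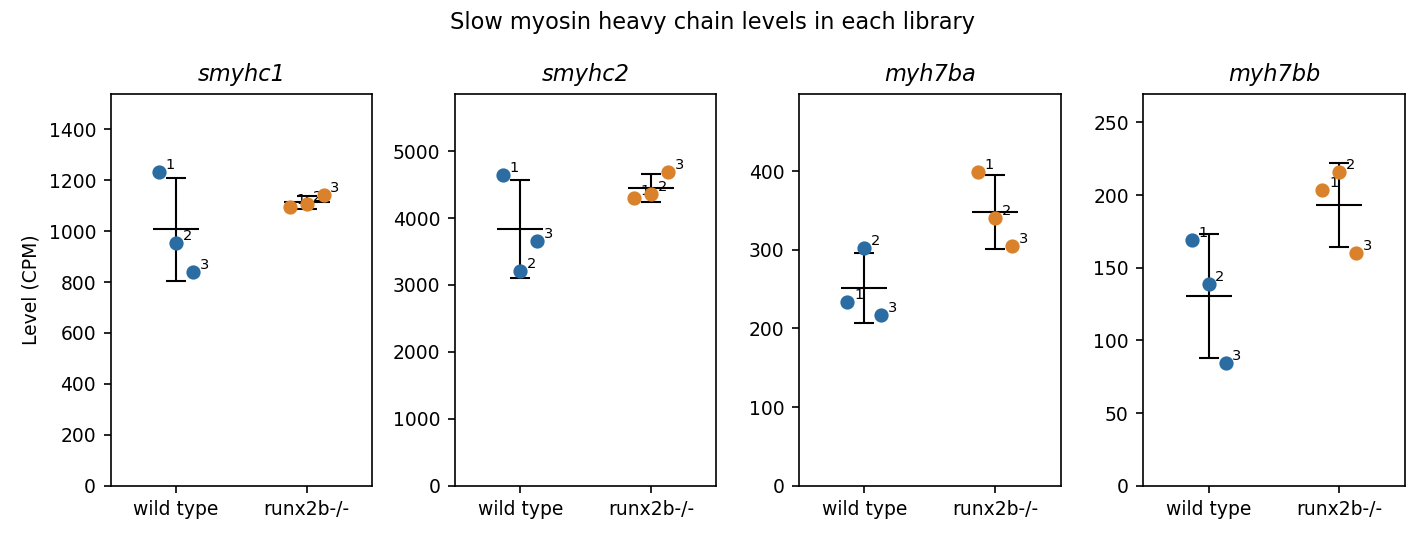
Level in CPM (vertical axes, each from 0) of the 4 slow myosin genes in 3 wild type (blue) and 3 runx2b-/- (orange) libraries, numbered by replicate; bars are the mean and SD. The mutant libraries of smyhc1 sit between 1094 and 1142 CPM inside the wild type range, and only in myh7ba do all mutant libraries lie above all wild type libraries.

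Gene length went with the direction of change, and all 4 members are long. They belonged to the longest of 10 equal classes of tested genes (6273 bases or more), in which the median log2 fold change was 0.19 and 71.6% of genes were above 0, against a median of -0.01 over all tested genes. smyhc1 (0.14) and smyhc2 (0.21) lay near that class median, and myh7ba (0.47) and myh7bb (0.56) lay above its upper quartile of 0.43. With a correction for length the log2 fold change was -0.03 for smyhc1 and -0.06 for smyhc2, which turned their direction. It was 0.32 for myh7ba (adjusted p = 0.379) and 0.41 for myh7bb (adjusted p = 0.427) with that correction, and both 95% intervals then held 0. The length used for smyhc2 covers more than 1 cluster of exons, so its corrected value is uncertain.

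Compared per kb of exon length, the order of the 4 genes was the same in every library. smyhc2 was highest, at 277.6 to 405.4 CPM per kb over the 6 libraries, and smyhc1 followed at 122.4 to 179.5 CPM per kb. myh7ba stood at 33.76 to 61.93 CPM per kb and myh7bb at 13 to 33.15 CPM per kb. No neighbours in this order had overlapping ranges, though the gap between myh7ba and myh7bb was narrow. The value of smyhc2 is an average over the more than 1 cluster of exons in its row.

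**Figure D3:**
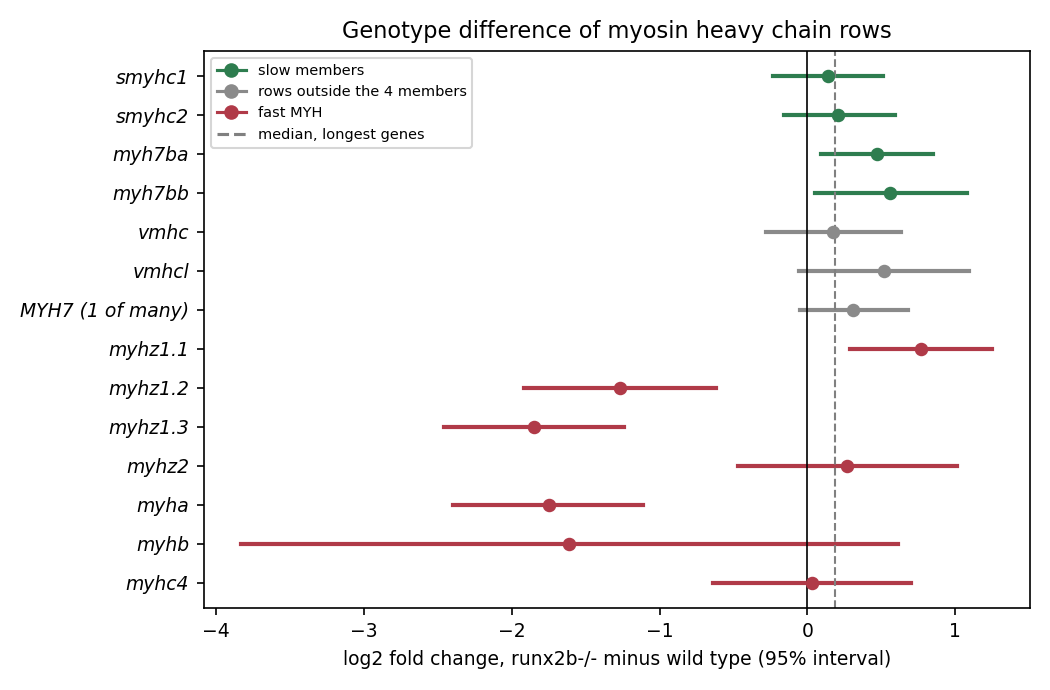
Log2 fold change (runx2b-/- minus wild type, points) with its 95% interval (lines) for the 4 slow members (green), 3 rows outside the set (grey) and 7 fast myosin heavy chain rows (red); the dashed line is the median of the longest class of genes, 0.19. The slow members lie between 0.14 and 0.56, and the intervals of myha, myhz1.2 and myhz1.3 lie wholly below 0.

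The sum of the 4 members was 6281, 4603 and 4806 CPM in wild type libraries 1 to 3. In mutant libraries 1 to 3 it was 5998, 6014 and 6297 CPM. Wild type library 1 and the mutant libraries formed the upper end, and wild type libraries 2 and 3 lay below all of them. The mean was 5230 ± 916 CPM in wild type and 6103 ± 168 CPM in mutant (SD, n = 3 each), a ratio of 1.17, and the groups overlapped. smyhc2 made up a mean of 73.1% of the sum, smyhc1 18.8%, myh7ba 5.33% and myh7bb 2.83%.

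The make-up of the sum varied little between libraries for the smyhc pair and more for the MYH7B pair. The ratio of smyhc2 to smyhc1 in CPM was 3.77, 3.37 and 4.36 in the wild type libraries, and the mutant ones had 3.93, 3.94 and 4.11. The sum of myh7ba and myh7bb was 402.7, 440.4 and 302.2 CPM in wild type and 602.3, 556.3 and 465.8 CPM in mutant. Those groups did not overlap, with a ratio of means of 1.42. Nor did those of myh7ba alone, and 12.8% of tested genes had all mutant libraries above wild type. As a share of the family sum, however, that pair held 6.41%, 9.57% and 6.29% in the wild type libraries, and the mutant ones had 10.04%, 9.25% and 7.40%, which overlapped.

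The spread differed between the genotypes in the smyhc pair. The coefficient of variation (SD over mean, n = 3) of smyhc1 was 20% in wild type and 2.24% in mutant, and that of smyhc2 was 19.1% and 4.73%. For myh7ba it was 17.8% and 13.6%, and for myh7bb 32.7% and 15%. Several fast myosins went the other way, with myhc4 at 26.5% in wild type and 37.7% in mutant. These spreads rest on 3 libraries each and were not tested.

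Against the fast myosins, slow myosin was a small fraction of the tissue's myosin heavy chain transcripts. Slow members held 2.79%, 1.64% and 1.34% of sarcomeric myosin heavy chain counts (the 4 slow members, 7 fast rows and 3 cardiac-type rows) in wild type libraries 1 to 3. In mutant libraries 1 to 3 they held 2.59%, 1.81% and 1.80%. MYH7 (1 of many), at 47.0% to 57.1% of the level of the family sum, was in neither part of this share. A share with that row was not computed. The share was high in library 1 of each genotype, and the groups overlapped. The sum of the fast rows was lowest in library 1 of each genotype, at 218713 CPM in wild type and 225538 CPM in mutant. The slow sum of library 1 was the highest of wild type (6281 CPM) but the lowest of mutant (5998 CPM). The mean share was 1.92% ± 0.767 in wild type and 2.07% ± 0.451 in mutant (SD, n = 3 each). The difference of 0.147 percentage points was smaller than either SD. Leaving out 1 wild type library gave 0.581 (library 1), 0.00483 (library 2) or -0.145 (library 3), and leaving out 1 mutant library gave -0.113 (library 1), 0.275 (library 2) or 0.279 (library 3).

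**Figure D4:**
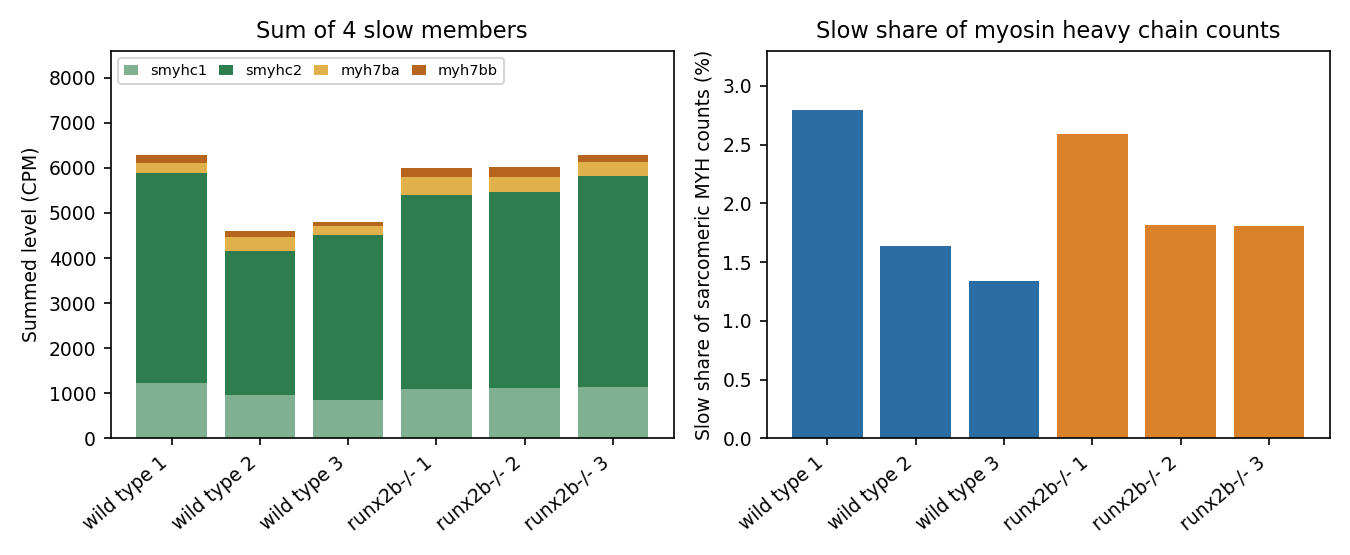
Left, the summed level in CPM of the 4 slow members in each library, stacked by gene; right, the percentage of sarcomeric myosin heavy chain (MYH) counts that belong to them, wild type in blue and runx2b-/- in orange. The sum lies at 4603 to 6297 CPM and is mostly smyhc2; the share runs from 1.34% (wild type library 3) to 2.79% (wild type library 1).

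In the fast myosin heavy chain list, 3 of 7 tested rows fell and none rose, with a list median of -1.27. Of all tested genes, 3.37% were called in either direction. The log2 fold change of myhz1.3 was -1.85 (SE 0.28), with an edgeR adjusted p of 0.00726. It was -1.75 for myha (SE 0.29, adjusted p = 0.0114) and -1.27 for myhz1.2 (SE 0.29, adjusted p = 0.0476). The row of myhz1.1, which joins models on more than 1 chromosome, was higher at 0.77 (SE 0.22, adjusted p = 0.0809) and was called by DESeq2 (adjusted p = 0.0234). The call of myhz1.2 was lost without each single library, with upper-quartile factors and with a filter of 50 counts in 3 libraries. The call of myha was lost without wild type library 2 or mutant library 2, and that of myhz1.3 without mutant library 2. The sum of all 7 fast rows was 283072 ± 68004 CPM in wild type and 297866 ± 63213 CPM in mutant (SD, n = 3 each), and the groups overlapped. Near-identical fast myosins lie side by side too, so their split of reads is likewise uncertain.

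RefSeq lists vmhc as an older symbol of myh7 and vmhcl as one of myh7l, and the table has rows of those older symbols. It also lists smyhc3 among the synonyms of myh7, so older names do not separate these genes cleanly. vmhc (chromosome 2, 24600869 to 24614260), the ventricular myosin, was scarce in tail muscle, at 8.61, 14.9 and 11.3 CPM in the wild type libraries; the mutant ones had 14.6, 10.7 and 13.8 CPM. The log2 fold change was 0.17 (SE 0.21, edgeR adjusted p = 0.709). vmhcl (chromosome 2, 24618673 to 24633992) lay at 21 to 39 counts per library. Its mutant libraries all lay above wild type, as in 12.8% of tested genes, at 0.52 (SE 0.27, adjusted p = 0.318). MYH7 (1 of many) stood at 3081, 2601 and 2259 CPM in wild type and 3027, 3240 and 3594 CPM in mutant, with 0.31 (SE 0.17, adjusted p = 0.344). That row reached 47.0% to 57.1% of the level of the family sum. Adding it to the sum moved the ratio of mutant to wild type from 1.17 to 1.19.

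Markers of heart muscle were uneven. Of 13 cardiomyocyte markers 11 had a row and 3 were tested. vmhc and, in wild type, tnnt2a carried most of the list's counts, and the other 9 each had 38 or fewer in any library. The atrial peptide gene nppa had 4 counts, all in wild type library 3, and nkx2.5, a heart transcription factor, had 3 counts in each genotype. The atrial myosin gene myh6 had 38 counts in wild type library 3, 2 and 1 in the others of that genotype, and 0 in each mutant library. The summed level of the list was 20.9 to 32.0 CPM in wild type and 15.1 to 19.45 CPM in mutant. Within it the troponin T gene tnnt2a stood at 13.45 ± 2.68 CPM in wild type and 2.78 ± 2.12 CPM in mutant (edgeR adjusted p = 0.208), and voom called 1 gene of the list. gata4, at 5 to 19 counts per library, went the other way, with a log2 fold change of 1.08 (SE 0.44, edgeR adjusted p = 0.204). Of the 3 tested markers 2 had a log2 fold change above 0, and the list median was 0.17. Even that whole list was below the level of myh7bb, the scarcest member, in each library.

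Some red blood cell markers were higher in the mutant, as were the point estimates of all slow members, none of which was called. Of 8 tested markers 4 rose and none fell, beside 1.76% of all tested genes called higher. The list median was 0.81, and the summed level was 1156 to 1365 CPM in wild type and 1536 to 1789 CPM in mutant. The abundant globin gene hbaa1 was level, at 0.01 (edgeR adjusted p = 0.99). hbba1 (0.39), hbba2 (0.64) and gata1a (0.74) were not called either. hbaa2, a globin gene, and slc4a1a, the anion exchanger of red cells, were among those that rose, at 1.08 (SE 0.26, edgeR adjusted p = 0.0409) and 1.85 (SE 0.18, adjusted p = 0.000144). alas2, the first enzyme of red cell heme synthesis, rose by 0.99 (SE 0.19, adjusted p = 0.0167), and epb41b, of the red cell membrane skeleton, by 0.88 (SE 0.18, adjusted p = 0.0186). The part of blood content in the values of the slow myosins was not tested. Smooth muscle markers had 0 of 4 tested called by edgeR, DESeq2 or voom, 0 of them with an unadjusted p under 0.05, and a list median of 0.23.

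Other genes of slow fibres had 0 of 21 tested members called, beside 3.37% of all tested genes. Their median log2 fold change was 0.08, against -0.01 over all tested genes, and 12 of 21 were above 0. Both other tools called 0, and 4 genes reached an unadjusted p of less than 0.05, beside 19.4% of all tested genes. The most abundant were the slow troponin T gene tnnt2e (3228 ± 767 CPM in wild type and 3105 ± 190 in mutant; -0.06, SE 0.19, edgeR adjusted p = 0.907) and the tropomyosin gene tpm3 (2765 ± 656 and 2833 ± 181 CPM; 0.03, SE 0.18, adjusted p = 0.942). The direction of tpm3 turned with library size only (-0.015) and that of tnnt2e with the length correction (0.0124). Both had the same contrast in spread as smyhc1, wide in wild type and narrow in mutant.

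The 4 genes with an unadjusted p under 0.05 were named after their values were seen. mb, for the oxygen store myoglobin, stood at 1914 ± 583 CPM in wild type and 2907 ± 490 CPM in mutant (0.60, SE 0.22, edgeR adjusted p = 0.151). myom3, for a myomesin of the M-band that cross-links myosin filaments, had a difference of 0.55 (SE 0.19, adjusted p = 0.133) and the troponin I gene tnni1b one of 0.43 (SE 0.18, adjusted p = 0.196). The myosin light chain gene myl10 was lower, at -0.38 (SE 0.17, adjusted p = 0.237). Without wild type library 1, edgeR called 3 of these slow fibre genes higher: mb (adjusted p = 0.0155), myom3 (0.032) and ryr1a (0.0258), the calcium release channel of slow fibres in zebrafish. That fit called 670 of 14528 tested genes in either direction. With any other single library left out, edgeR called 0 of the 21. Without wild type library 2 the edgeR adjusted p was 0.45 for mb and 0.415 for myom3. mb was also called without a filter (0.0412) and with the replicate block (0.0322), fits that called 1161 of 25279 and 377 of 14107 genes.

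The order of the wild type libraries differed between slow muscle genes. Among the 3 wild type libraries, library 1 was the highest for smyhc1, smyhc2 and myh7bb, and library 3 the lowest for smyhc1, myh7ba and myh7bb. Library 2 was the highest for myh7ba and the lowest for smyhc2. Of the 21 other slow fibre genes tested, 15 were highest in library 1 and 11 lowest in library 3. Of the 20 tested slow fibre regulators 7 were highest in library 1 and 7 lowest in library 3. Of the 4 slow muscle markers these counts were 2 and 2, but those markers are smyhc1 and genes already among the 21. Over all tested genes, 36.8% were highest in library 1 and 35.4% lowest in library 3. The summed level of these other slow fibre genes was 17151, 12717 and 12107 CPM in the wild type libraries, and the mutant ones held 16094, 14181 and 14009 CPM.

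Regulators of the slow fibre programme had 0 of 20 tested members called, beside 3.37% of all tested genes. Their median was 0.02. Before adjustment 6 had a p below 0.05, beside 19.4% of all tested genes, and 1 was called by DESeq2 and 0 by voom. The most abundant were smyd1a (0.21, SE 0.19, edgeR adjusted p = 0.603) and smyd1b (-0.35, SE 0.17, adjusted p = 0.292), muscle methyltransferases of which smyd1b is needed for thick filament assembly in zebrafish. The gene that DESeq2 called was mef2ca, a muscle transcription factor (log2 fold change 0.63, DESeq2 adjusted p = 0.0459 and edgeR adjusted p = 0.0725). sox6, which represses slow fibre genes in zebrafish fast fibres, stood at 15.4 ± 4.80 CPM in wild type and 22.8 ± 2.47 CPM in mutant (0.56, SE 0.21, edgeR adjusted p = 0.166). Its groups overlapped. Besides mef2ca and sox6, those 6 were six1a (-0.59, edgeR adjusted p = 0.0551), mef2d (0.52, 0.0802), ppargc1b (0.73, 0.0899) and prox1a (0.54, 0.219). Under other settings edgeR called 4 of these regulators, named for that after their values were seen. Without wild type library 1 it called sox6 (adjusted p = 0.0184) and ppargc1b, a coactivator gene of mitochondrial metabolism (adjusted p = 0.00798), both higher. Without a filter it called ppargc1b (0.0151) and mef2ca (0.022) higher and six1a, a muscle transcription factor gene, lower (0.0356). six1a was also called lower without wild type library 3 (adjusted p = 0.0334). Over all tested genes, 670 of 14528 were called without wild type library 1 and 1161 of 25279 without a filter. Without wild type library 3 it was 1225 of 14840.

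The myosin chaperone list held 4 genes, of which smyd1a and smyd1b were also counted among the regulators above. In this list 1 gene fell and none rose, beside 3.37% of all tested genes called in either direction. hsp90aa1.1, the heat shock protein that folds myosin in zebrafish skeletal muscle, had 20187, 32108 and 14320 counts in wild type libraries 1 to 3. In mutant libraries 1 to 3 it had 8862, 6991 and 7593 counts. All mutant libraries lay below all wild type libraries, at 416 ± 5.12 against 1074 ± 376 CPM (SD, n = 3 each). The groups did not overlap, in either direction, for 3467 of 14107 tested genes. The log2 fold change of hsp90aa1.1 was -1.37 (SE 0.22), with an edgeR adjusted p of 0.00672. The call was lost without any single mutant library, with an adjusted p of at most 0.06. Its partner unc45b, a myosin-specific co-chaperone, stood at 72.1 ± 34.6 CPM in wild type and 29.6 ± 5.06 CPM in mutant (-1.29, SE 0.31, edgeR adjusted p = 0.066), and DESeq2 called it lower (adjusted p = 0.000395). The RNA levels of smyhc1 and smyhc2 stood at 1.1-fold and 1.16-fold of wild type in the same libraries. Of the fast myosin rows, 3 of 7 were called lower and 0 higher. A link between the chaperones and these levels was not tested.

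The genes whose levels followed the slow myosins most closely across the 6 libraries were taken by Pearson's r of log2(CPM + 1), among 3245 tested genes with a mean of at least 10 CPM and a gene name. With so few libraries and the best taken from so many genes, such values are high by selection and carry no test. For smyhc1 they were mybpc3 (r = 0.997), a myosin binding protein C gene of the cardiac type in mammals, TP53INP2 (0.980) and gpt2 (0.980), a mitochondrial alanine aminotransferase gene. mybpc3 stood at 308, 199 and 166 CPM in the wild type libraries, and the mutant ones held 263, 262 and 270 CPM. Like smyhc1 it was highest in wild type library 1, lowest in wild type library 3 and close together in the mutant libraries.

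For smyhc2 the closest were agpat3 (r = 0.996), a phospholipid acyltransferase gene, atrx (0.986), a chromatin remodeller gene, and the RNA helicase gene ddx1 (0.973). For myh7ba they were the phosphatase gene ppm1la (0.979), shroom4 (0.967) and erg (0.966), an endothelial transcription factor. For myh7bb they were pik3r1 (0.975), the regulatory subunit gene of PI3 kinase, pdlim5b (0.973) and the sulfatase gene sulf1 (0.973). For the family sum they were hp1bp3 (0.989), ubr3 (0.978), acsl1b (0.974), an acyl-CoA synthetase gene, mccc1 (0.969) and atrx (0.967). Among the members themselves r was 0.82 for smyhc1 with smyhc2, 0.81 for smyhc1 with myh7bb and 0.76 for myh7ba with myh7bb. It was 0.57 for smyhc2 with myh7bb, 0.32 for smyhc1 with myh7ba and 0.16 for smyhc2 with myh7ba. The points of each r share the same 6 libraries and their scaling.

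**Figure D5:**
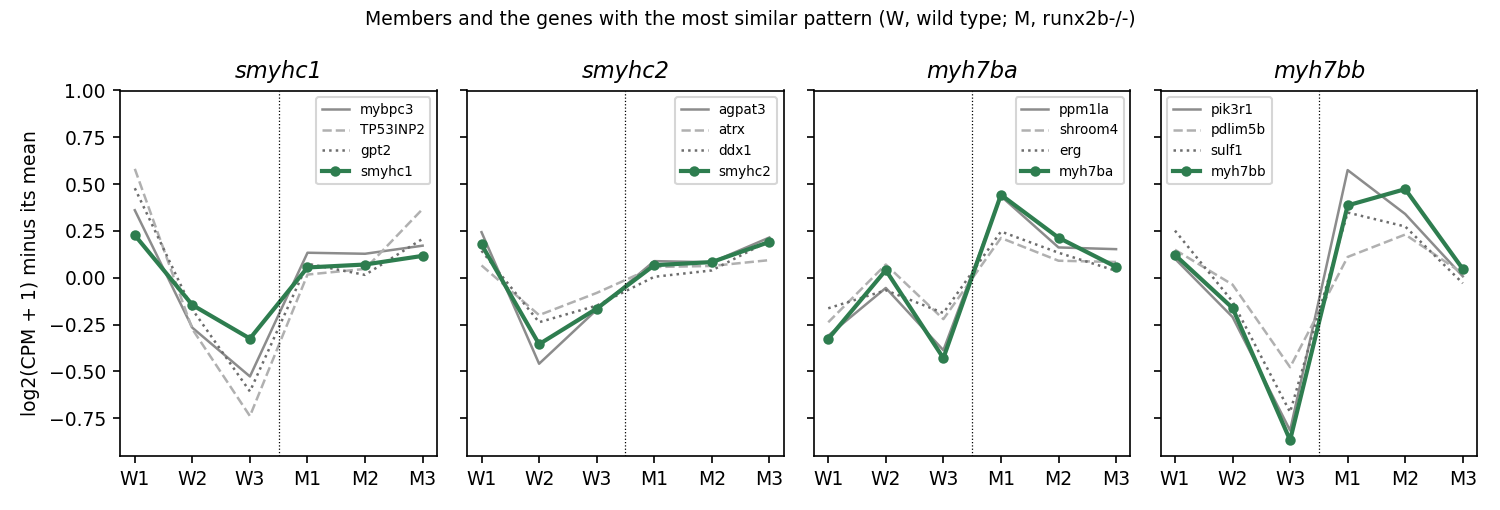
Log2(CPM + 1) minus its mean over the 6 libraries (vertical axis) for each slow member (green) and its 3 closest genes (grey), in wild type (W1 to W3) and runx2b-/- (M1 to M3) libraries; lines only join the points of a gene. smyhc1 and mybpc3 are highest in W1, lowest in W3 and nearly level in the mutant libraries, whereas myh7ba is highest in M1.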

How the data were processed

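The deposited table gives whole-number read counts per gene symbol for 6 bulk libraries, without normalization or pooling; its gene length and model positions are per the file headers. The submitters' processing notes name GRCz11 and Cell Ranger without tying them to this table; the aligner, counter and strand setting are not given in the sources used here, and the labels' protocols state a stranded mRNA kit.

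The tests ran under R 4.3.3, using edgeR 4.0.16 (filterByExpr at a minimum count of 10 and total of 15, TMM factors of 0.882 to 1.126, robust quasi-likelihood test across all genes, Benjamini-Hochberg adjustment, threshold 0.05), and with DESeq2 1.42.0 and limma 3.58.1 (voom) as alternatives. SE is the absolute log2 fold change over the square root of F, and 95% intervals use the total degrees of freedom. In each library 3 counts equalled 0.134 to 0.181 CPM. Every pair of libraries within a genotype was further apart than counting noise allows (chi-square per degree of freedom of 25.5 to 95.3). Alternatives were scaling, filter, tool, a replicate block, a length correction (lowess span 0.3), summed smyhc rows and each library left out.

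The members and lists were chosen with earlier results of these data known. By rule, the text names all members, up to 4 called or else 2 abundant genes per list, and the 3 (family sum, 5) genes of most similar pattern. Other list genes that the text names, uncalled ones among them, fall outside that rule and were picked with their values known.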

Additional observations from a re-analysis of the deposited data

How the results depend on the processing

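No slow myosin gene was called as reported or under any of the 16 alternatives, DESeq2 and voom included. Log2 fold changes over these settings lay between -0.0258 and 0.306 for smyhc1 (adjusted p of 0.3 to 0.959), from -0.0643 to 0.363 for smyhc2 (0.243 to 0.895), from 0.322 to 0.612 for myh7ba (0.117 to 0.44) and from 0.334 to 0.783 for myh7bb (0.0654 to 0.493). The ratio of the family sum ran from 1.09 without wild type library 2 to 1.29 without wild type library 1, and the difference in slow share reached 0.881 percentage points without myhz1.1, a row on more than 1 chromosome; that setting and the sums with added rows were chosen after seeing the data. With the length correction, which removes the trend with gene length, the direction turned for smyhc1 (-0.0258), smyhc2 (-0.0643), MYH7 (1 of many) (-0.0319), tpm3 (-0.026) and tnnt2e (0.0124), none of them called; with library size only it turned for tpm3 (-0.015). The lengths used for smyhc2 and MYH7 (1 of many) each join more than 1 cluster of exons, so their corrected values are uncertain. With single libraries left out, vmhc ran from -0.0108 to 0.381, tnnt2e from -0.194 to 0.136 and tpm3 from -0.0718 to 0.237. The number of called genes was 1161 without a filter and 304 with at least 50 counts in 3 libraries, and ran from 115 (without mutant library 3) to 1225 (without wild type library 3); the cause was not tested. Of 52 tested genes in the context lists 4 were called, beside 476 of all 14107. Without a filter 10 of 57 were called, beside 1161 of 25279, and with DESeq2 7 of 52, beside 675 of 14107. With single libraries left out, the fewest were 0 of 52 without mutant library 2, beside 155 of 14833. The most were 9 of 52 without wild type library 1, beside 670 of 14528. Over all tested genes, same-numbered libraries did not deviate together (r of -0.057, 0.02 and 0.033). With 3 libraries per genotype, such values cannot settle whether the numbers pair the libraries, for all genes or for some. With the replicate block 377 genes were called, 0 of the 4 members, and myh7bb stood at 0.609 (adjusted p = 0.0812). The unadjusted edgeR p of myh7bb was 0.00393 with the block and 0.0349 without it. At these depths 4 slow members had 1485 or more counts in each library, so the spread between libraries, not counting error, limits their comparison.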
